A study of Mus musculus with 5 samples.

Results

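The granzyme cluster of mouse chromosome 14 comprises 6 genes, Gzmb, Gzmc, Gzmd, Gzme, Gzmf and Gzmg, grouped by their position and read in every library. The members were chosen with earlier results of these data known. They are 6 of 28692 genes counted, and at least 1 of their molecules was found in 19222 of 37074 cells kept. Together they gave 911551 UMIs (unique molecular identifiers, each standing for 1 captured RNA molecule): 408269 of Gzmb, 217598 of Gzmf, 170707 of Gzmc, 57090 of Gzmd, 47058 of Gzme and 10829 of Gzmg.

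Granzymes are serine proteases that cytotoxic lymphocytes store in granules and release onto a target cell, where the pore protein perforin lets them reach the cytosol. Granzyme B, encoded by Gzmb, cuts caspases and the death protein Bid after aspartate and is the member that human T and NK cells share. Gzmc encodes a protease that has been described in mouse T and NK cells after prolonged stimulation. Gzmd, Gzme, Gzmf and Gzmg form a group of close relatives without a direct human counterpart, are known from NK cells of the pregnant mouse uterus, and are little studied in tumors.

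The cells were live CD45+ cells sorted from B16-F10 melanomas grown under the skin of mice (500000 cells implanted, tumors taken on day 11), and 5 droplet libraries capturing the 5' end of transcripts were made from about 16000 loaded cells each. The libraries differ by treatment. They are named PBS, anti-PD1 and IL15 superagonist, together with a combination of the last 2 agents (for which 1 label field writes IL15 without the word superagonist) and a fusion of anti-PD1 and IL15. Neither dose, treatment schedule, mouse strain nor the number of mice behind a library is given in the labels, whose text places the treatments after the tumors were removed. With 1 library per treatment no test between treatments is possible: intervals below are exact 95% intervals that cover counting error only, and a difference between treatments cannot be told apart from a difference between libraries. PD-1 restrains T cells that have met antigen, and IL-15 is a cytokine on which NK cells and memory CD8 T cells depend.

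Libraries held 6015 to 8747 barcodes and 32832856 to 81565425 UMIs, with medians of 4279 to 7851 UMIs per cell, the fusion library being the deepest. Each pair of libraries shared 60 to 100 barcodes, and 1520 kept cells carried a barcode seen in more than 1 library. Cells were gated on marker UMIs, and cells with markers of different lineages (2.29% to 4.88% of a library) were left out. Within the CD8 T gate Cd8a was found in 87.9% to 97.2% of cells and Foxp3 in 0.2% to 1.4%, and within the NK gate Ncr1 was found in 62.7% to 82.5%. The CD8 T gate held 921 cells with PBS, 1080 with anti-PD1, 1860 with the IL15 superagonist, 3116 with the combination and 6529 with the fusion. The NK gate held 177, 447, 959, 796 and 212 cells in the same order.

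All 6 genes lie on the minus strand of chromosome 14 between positions 56117626 and 56262260 of mm10, a span of 144.6 kb in which the only other protein-coding gene is Gzmn. In the direction of transcription the order is Gzmb (56258838 to 56262260), Gzmc (56231441 to 56234656), Gzmf (56205263 to 56211417), Gzmg (56156582 to 56159579), Gzmd (56129556 to 56132608) and Gzme (56117626 to 56120625), each with 5 exons. The coding sequences of Gzmb and Gzmc matched each other at 76.6% of aligned bases. Gzmb matched Gzmd to Gzmg at 67.6% to 69.9%, and Gzmc matched them at 73.3% to 75.1%. Gzmd and Gzme matched each other at 94.8%, and Gzmg matched Gzme at 89.5%.

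The promoters are shown because Gzmc to Gzmg, whose levels are described together below, also share promoter sequence. Each line gives the 130 bases before the transcription start in RefSeq (build GRCm38.p6, minus strand, 5′ to 3′), and capitals mark the 20-base stretch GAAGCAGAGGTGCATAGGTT.
Gzmb (chr14:56262335-56262464): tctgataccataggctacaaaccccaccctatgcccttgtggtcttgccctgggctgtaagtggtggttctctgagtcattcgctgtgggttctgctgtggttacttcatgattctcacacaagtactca
Gzmc (chr14:56234658-56234787): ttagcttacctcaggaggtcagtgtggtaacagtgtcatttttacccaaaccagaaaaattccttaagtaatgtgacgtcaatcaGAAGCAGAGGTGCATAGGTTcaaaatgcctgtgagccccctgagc
Gzmd (chr14:56132594-56132723): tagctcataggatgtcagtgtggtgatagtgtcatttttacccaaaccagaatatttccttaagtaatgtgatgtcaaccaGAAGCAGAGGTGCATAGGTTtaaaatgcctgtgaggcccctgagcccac
Gzme (chr14:56120626-56120755): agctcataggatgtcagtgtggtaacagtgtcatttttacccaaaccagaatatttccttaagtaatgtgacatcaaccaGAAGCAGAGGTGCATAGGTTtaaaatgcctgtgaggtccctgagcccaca
Gzmf (chr14:56211408-56211537): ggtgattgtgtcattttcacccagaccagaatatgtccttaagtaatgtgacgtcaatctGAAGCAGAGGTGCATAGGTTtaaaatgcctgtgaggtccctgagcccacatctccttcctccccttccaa
Gzmg (chr14:56159580-56159709): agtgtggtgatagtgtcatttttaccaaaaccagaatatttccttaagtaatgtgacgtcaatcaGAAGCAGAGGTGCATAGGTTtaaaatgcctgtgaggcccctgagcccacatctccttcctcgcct

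The capitalised stretch was found on either strand in 5 of 32544 mouse promoters, those of Gzmc, Gzmd, Gzme, Gzmf and Gzmg, and in neither Gzmb nor Gzmn. Over the whole promoter the 5 matched each other at 84.4% to 95.6% of aligned bases and matched Gzmb at 52.7% to 62.4%. In these windows 5 motifs were searched on both strands. The cyclic AMP response element TGACGTCA was found in Gzmc, Gzmf and Gzmg and in 1.30% of all promoters, and it overlaps no part of the shared stretch. The AP-1 motif TGANTCA was found in Gzmb alone of the 6 and in 3.69% of all promoters. The RUNX motif TGTGGT was found in 5 of the 6, Gzmf being the exception, and in 7.20% of all promoters. The Gzmf window starts inside the bases that align with the match of Gzmd and Gzmg, so a match across its edge would be missed. Neither the STAT motif TTCNNNGAA (3.52% of promoters) nor the T-box motif GGTGTGA (1.64%) was found in any of the 6 windows. A match is a run of letters and not a measured binding site.

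Likeness of the transcripts bears on how far the counts can be told apart. Of all 60-base windows of its transcript, Gzmb shared none with another member, while 98.6% of those of Gzmc, 96.0% of Gzmf, 89.4% of Gzmg, 87.7% of Gzme and 85.4% of Gzmd occurred in no other member. Over the first 300 bases alone, the end that these libraries capture, the shares were 98.8% for Gzmc, 96.7% for both Gzme and Gzmf, 82.6% for Gzmg and 77.2% for Gzmd. The treatment of a read that matches several members, not given in the sources used here, is unknown, so the split between the members is uncertain, most of all for Gzmd and Gzmg. The summed level of Gzmc to Gzmg is given beside the members for that reason.

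CD8 T cells of the fusion library carried far more RNA of all 6 genes than those of the other 4 libraries, and the excess was larger for Gzmc to Gzmg than for Gzmb. Levels are given as CPM, UMIs of the gene per 1000000 UMIs of the pooled cells of a gate. Gzmb stood at 694 CPM (673 to 715) with PBS, 1899 (1870 to 1929) with anti-PD1, 1455 (1433 to 1478) with the IL15 superagonist, 1829 (1810 to 1847) with the combination and 3911 (3896 to 3926) with the fusion. PBS was thus the lowest library and the fusion the highest, with the 3 other treatments between them.

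Gzmf, the second most abundant member, was measured at 133 CPM with PBS, 312 with anti-PD1, 270 with the IL15 superagonist, 264 with the combination and 2767 with the fusion. Gzmc stood at 105, 280, 349, 237 and 1561 CPM in that order of libraries. For both genes the 3 intermediate libraries lay near each other and the fusion library stood alone. Gzmd gave 35.3, 94.2, 85.2, 53.7 and 608 CPM, and Gzme, its nearest relative, 28.3, 93.7, 83.0, 81.7 and 544 CPM. The rarest member, Gzmg, gave 2.59, 6.07, 4.91, 4.49 and 75.4 CPM. In every library the members kept Gzmb highest and Gzmg lowest, Gzmf stood above Gzmc in all but the IL15 superagonist library, and the intervals of Gzmd and Gzme overlapped with PBS, anti-PD1 and the IL15 superagonist. Gzme stood above Gzmd with the combination and below it with the fusion. The order of Gzmf and Gzmc with anti-PD1 rests on a single cell, the highest in UMIs of Gzmc to Gzmg. Without that cell Gzmc stood at 267 CPM and Gzmf at 255 CPM.

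**Figure D1:**
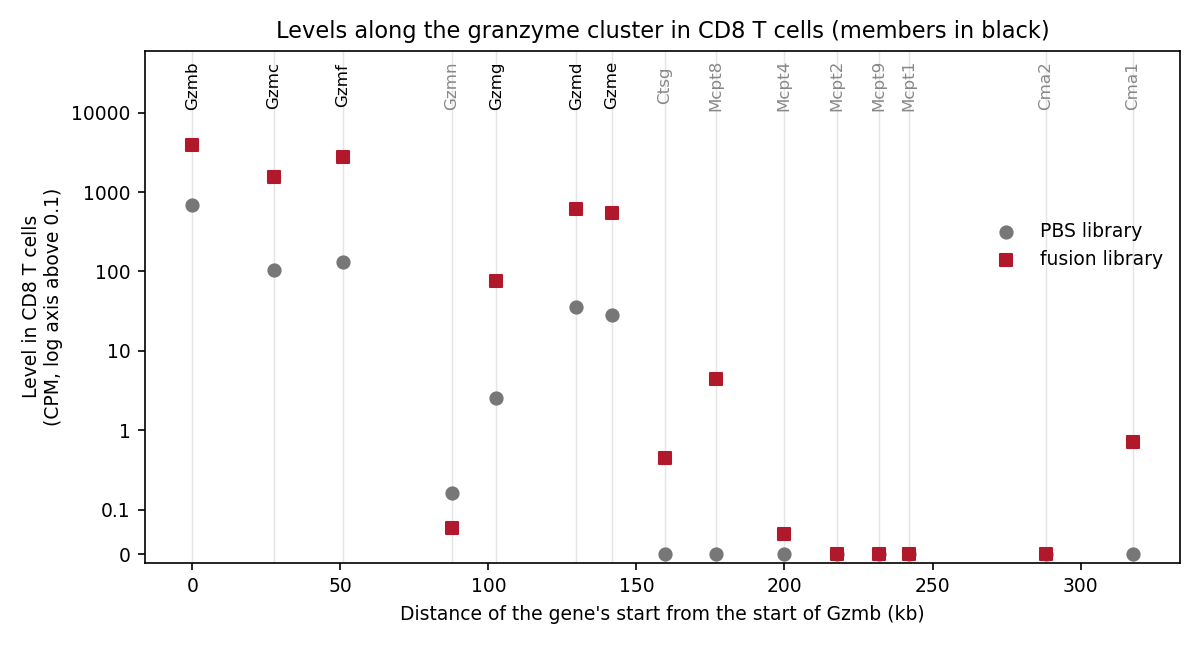
Level of each gene in CD8 T cells (y axis, CPM on a log axis above 0.1) against the distance of its start from the start of Gzmb (x axis, kb), for the PBS library (grey circles) and the fusion library (red squares). The 6 members, named in black, lie between 2.59 and 694 CPM with PBS and between 75.4 and 3911 CPM with the fusion. Of the neighbouring genes named in grey Mcpt8 reached 4.37 CPM with the fusion, a lower limit because the gate left out T cells rich in it.

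Against PBS, the fusion library was 5.64-fold higher in Gzmb (5.47 to 5.81), 14.9-fold in Gzmc (13.8 to 16.2) and 17.2-fold in Gzmd (15.1 to 19.8). The ratios were 19.2 for Gzme (16.6 to 22.4), 20.9 for Gzmf (19.5 to 22.4) and 29.1 for Gzmg (17.9 to 51.0). All 6 members were thus at least 2-fold higher, where 8.94% of the 12058 genes with at least 20 UMIs over both libraries were. The median of the members was 4.18 on the log2 scale, beside -0.14 for all genes tested. Scaling by the median ratio of genes, which lies at -0.155 here, in place of total UMIs takes the log2 ratio of Gzmb from 2.50 to 2.65. The lowest member ratio, that of Gzmb, lay outside the intervals of the other 5. A single PBS cell held 82 of 218 Gzmd UMIs and 10 of 16 Gzmg UMIs of that gate. Without the cell of each library that held the most UMIs of Gzmc to Gzmg, the ratio was 27.4 for Gzmd (23.2 to 32.7) and 74.7 for Gzmg (34.3 to 204).

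The other treatments lay nearer to PBS in all 6 members, and they share the PBS control with each other and with the fusion. Anti-PD1 was at least 2-fold above PBS in all 6 members (2.72% of genes tested were), from 2.34-fold for Gzmg (1.31 to 4.40) to 3.31-fold for Gzme (2.80 to 3.92). The IL15 superagonist was at least 2-fold above PBS in 5 members (6.75% of genes), with Gzmc highest at 3.34-fold (3.07 to 3.63) and Gzmg short of the limit at 1.89-fold (1.07 to 3.54). Without the highest cell of each library Gzmg was 4.42-fold above PBS with the IL15 superagonist and 4.41-fold with anti-PD1. The combination was at least 2-fold above PBS in Gzmb at 2.64-fold, Gzmc at 2.26-fold and Gzme at 2.88-fold, 3 of 6 members against 5.54% of genes. Gzmf lay just outside that limit at 1.99-fold (1.85 to 2.14). That count rests on single cells: without the highest cell of each library all 6 passed, with Gzmd at 2.26-fold (1.89 to 2.72), Gzmf at 2.32-fold (2.14 to 2.52) and Gzmg at 2.48-fold (1.06 to 7.07).

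The fusion library can be set against the other treatments without PBS. Against the combination it was 2.14-fold higher in Gzmb (2.12 to 2.16) and 6.59-fold in Gzmc, 11.3-fold in Gzmd, 6.66-fold in Gzme, 10.5-fold in Gzmf and 16.8-fold in Gzmg (13.7 to 20.8), so all 6 passed 2-fold where 6.6% of genes did. Without the highest cell of each library Gzmg was 30.1-fold higher (22.9 to 40.5). Against anti-PD1 the ratios ran from 2.06 for Gzmb to 12.4 for Gzmg, again 6 of 6 (5.95% of genes). Against the IL15 superagonist they ran from 2.69 for Gzmb to 15.4 for Gzmg, also 6 of 6 (7% of genes). The sum of Gzmc to Gzmg was 8.68-fold (8.53 to 8.83), 7.07-fold (6.90 to 7.24) and 7.01-fold (6.87 to 7.16) higher in these 3 comparisons. Among the remaining 3 treatments no member differed by 2-fold in either direction. Of all genes, 1.03% were higher and 2.09% lower with the combination than with the IL15 superagonist, 2.32% and 3.62% with the combination than with anti-PD1, and 4.1% and 3.79% with the IL15 superagonist than with anti-PD1.

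**Figure D2:**
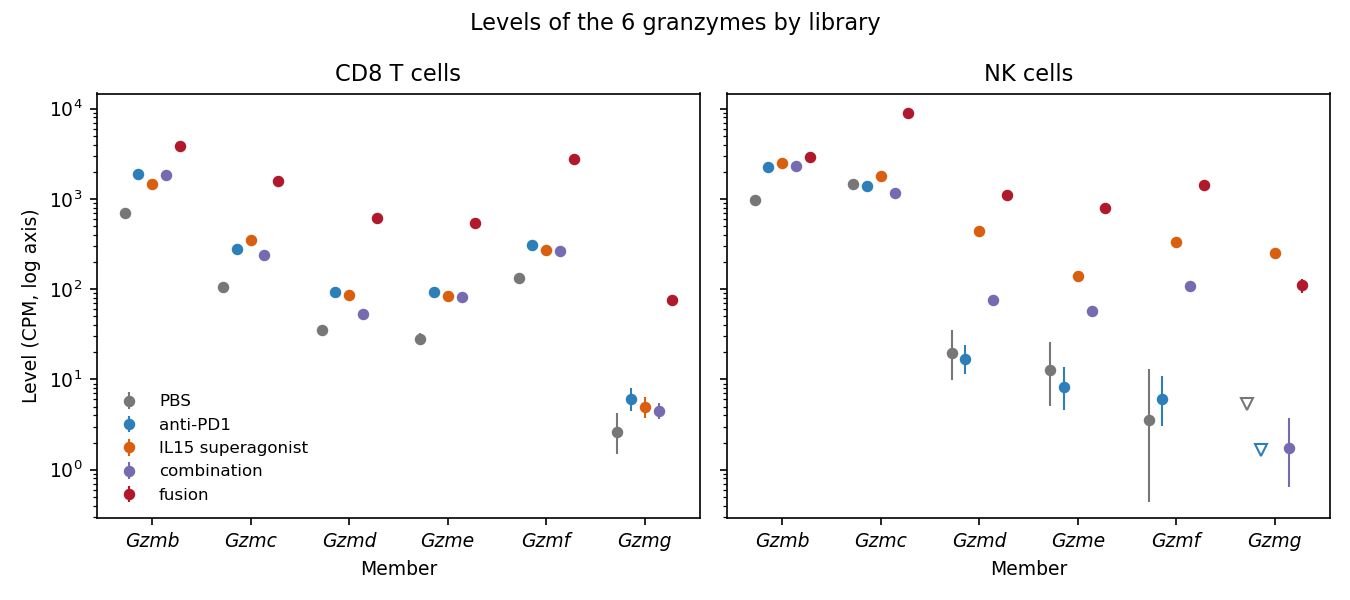
Level of each member (y axis, CPM, log axis) in CD8 T cells (left) and NK cells (right), 1 point per library with its exact 95% Poisson interval; open triangles mark the upper limit where 0 UMIs were counted. In CD8 T cells the fusion library is highest for all 6 members, whereas in NK cells the libraries other than PBS lie between 2255 and 2888 CPM for Gzmb and the fusion library stands apart for Gzmc at 9014 CPM.

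More cells, and not only more RNA per cell, carried the genes in the fusion library. To compare shares of cells at 1 depth, each cell was thinned at random to 2000 UMIs. Gzmb was then detected in 50.3% of CD8 T cells with PBS, 62.8% with anti-PD1, 51.9% with the IL15 superagonist, 59.4% with the combination and 88.1% with the fusion (87.3% to 88.9%). At least 1 of Gzmc to Gzmg was detected in 5.26%, 10.8%, 14.6%, 11.0% and 60.3% (59.1% to 61.5%). Without thinning the latter shares were 8.79%, 17.2%, 22.4%, 17.9% and 79.2%, at median depths of 5536, 6303.5, 4611.5, 5072 and 9097 UMIs. By member, the thinned share with the fusion was 43.6% for Gzmf, 42.1% for Gzmc, 23.5% for Gzme, 20.7% for Gzmd and 4.90% for Gzmg. With PBS those shares were 3.36%, 3.25%, 0.896%, 1.01% and 0.224%.

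Monocytes and macrophages, which are not regarded as a source of these proteases, give the background from free RNA. Their thinned share with Gzmb was 0.631%, 1.33%, 2.03%, 1.60% and 9.67% in the same order, at median depths of 4769, 6189, 7059, 6898.5 and 6131 UMIs. For the sum of Gzmc to Gzmg it was 0.168%, 0.749%, 3.18%, 1.96% and 19.0%. In CPM the myeloid level was 0.586% to 1.38% of the CD8 T level for Gzmb, and 0.219% (PBS) to 2.15% (fusion) of it for the sum. For Gzmb and for the sum the share in CD8 T cells was thus above the background in every library, and the background itself was highest in the fusion library. Gzmg with the combination was not: it was detected in 0.321% of CD8 T cells, 0.377% of NK cells and 0.465% of myeloid cells. Its myeloid level of 1.71 CPM was 38.1% of that of CD8 T cells and 98.3% of that of NK cells.

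Few cells carried most of the RNA of Gzmc to Gzmg outside the fusion library. With PBS, 3 of the 81 CD8 T cells with any such UMI held at least 50% of the sum, and 1 cell alone held 24.8%. The corresponding cells numbered 9 of 186 with anti-PD1, 17 of 417 with the IL15 superagonist and 16 of 558 with the combination. The fusion library needed 374 of 5172 cells, and its highest cell, with 3098 UMIs of the 5 genes, held 0.830%. For Gzmb the spread was wider: 98 of 633 positive cells held at least 50% with PBS and 942 of 6209 with the fusion. Without the single highest cell of each library the sum was 229 CPM with PBS, 680 with anti-PD1, 740 with the IL15 superagonist, 574 with the combination and 5512 with the fusion, so PBS stayed lowest and the fusion highest. Thinning cells before gating moved the ratios of the sparse libraries more: the combination over PBS for the sum went from 1.08 to 0.15 on the log2 scale, the IL15 superagonist from 1.38 to 0.65, and anti-PD1 from 1.37 to 0.62.

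NK cells showed another pattern: Gzmb differed by at most 1.28-fold among the 4 treated libraries, and Gzmc was the most abundant member with the fusion. Gzmb stood at 975 CPM (895 to 1060) with PBS, 2255 with anti-PD1, 2518 with the IL15 superagonist, 2327 with the combination and 2888 (2792 to 2988) with the fusion. Gzmc stood at 1472, 1391, 1807, 1155 and 9014 CPM in that order. With PBS 1 cell held 340 of the 820 Gzmc UMIs, and without it Gzmc stood at 882 CPM and Gzmb at 884. Gzmc was below Gzmb in NK cells of anti-PD1, the IL15 superagonist and the combination, and in CD8 T cells Gzmb was above Gzmc everywhere.

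Gzmd to Gzmg were near 0 in NK cells of the PBS and anti-PD1 libraries. Gzmd gave 19.7, 17.0, 443, 76.5 and 1103 CPM, and Gzme 12.6, 8.22, 141, 57.1 and 786 CPM. Gzmf gave 3.59 CPM with PBS, from 2 UMIs, and 6.03, 336, 108 and 1439 CPM in the others. Gzmg gave 0 UMIs with PBS and with anti-PD1, 251 CPM with the IL15 superagonist, 1.74 with the combination and 110 with the fusion. The IL15 superagonist value of Gzmg rested on 1 cell, which held 670 of its 969 UMIs and 2832 UMIs of Gzmc to Gzmg in all. Leaving out the highest NK cell of each library took Gzmf from 336 to 161 CPM with the IL15 superagonist, from 108 to 33.7 with the combination and from 1439 to 1056 with the fusion.

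Against PBS, all 6 members were at least 2-fold higher in NK cells of the fusion library (12.6% of the 6663 genes tested): 2.96-fold for Gzmb (2.71 to 3.25), 6.12-fold for Gzmc (5.70 to 6.58), 55.9-fold for Gzmd (31.1 to 112), 62.5-fold for Gzme (30.2 to 156) and 401-fold for Gzmf (111 to 3312). Gzmg was at least 20.4-fold higher, taken against a floor of 3 counts in the PBS library. The 11 Gzmd and 7 Gzme UMIs of the PBS library all came from the 1 cell rich in Gzmc. Without the highest cell of each library Gzmc was 9.88-fold higher (9.01 to 10.8), Gzmd at least 168-fold, Gzme at least 131-fold, Gzmf 287-fold (79.4 to 2375) and Gzmg at least 11.7-fold. Over the combination 5 members passed, all but Gzmb at 1.24-fold (4.79% of genes), and over anti-PD1 the same count of 5 passed, with Gzmb at 1.28-fold (4.41% of genes). Over the IL15 superagonist 4 passed upward (5.02% of genes) and Gzmg was 2.28-fold lower (6.3% of genes were at least 2-fold lower), a value that rests on the cell named above: without the highest cells the fusion stood at 0.832 of the IL15 superagonist (0.636 to 1.08). Gzmb was 2.31-fold above PBS in NK cells with anti-PD1, the only 1 of the 4 members with enough UMIs to pass (6.96% of genes); Gzmc was 0.945 of PBS (0.873 to 1.02). The IL15 superagonist passed in 5 members (11.4% of genes), with Gzmc at 1.23-fold, and the combination in 4 of 5 members with enough UMIs (10.2% of genes), with Gzmc at 0.785 of PBS. These Gzmc ratios rest on the same PBS cell and on the highest cells of the other libraries: without them Gzmc was 1.21-fold above PBS with anti-PD1 (1.10 to 1.34), 1.85-fold with the IL15 superagonist (1.69 to 2.04) and 1.03-fold with the combination (0.937 to 1.14), so anti-PD1 and the combination turned. Gzmd was then at least 2.80-fold above PBS with anti-PD1 as well, against the floor of 3 counts. Gzmd to Gzmg were at least 2-fold lower with the combination than with the IL15 superagonist (1.1% of genes were). Without the highest cell of each library all 4 still passed. The combination then stood at 0.0816 of the IL15 superagonist for Gzmd, 0.259 for Gzme, 0.210 for Gzmf and 0.0224 for Gzmg.

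The share of NK cells with Gzmb, thinned, was 50.3%, 68.9%, 82.8%, 78.1% and 75.9% in the order above, and that with at least 1 of Gzmc to Gzmg was 18.5%, 13.2%, 18.8%, 19.97% and 51.4%. The NK cells had median depths of 2604, 3254, 3688, 3968 and 4050 UMIs, and the myeloid background given above applies. At least 50% of the summed UMIs of Gzmc to Gzmg lay in 2 of 34, 4 of 69, 3 of 264, 5 of 220 and 12 of 134 positive NK cells. NK levels of these 5 genes thus describe a handful of cells in every library. The NK gate of the fusion library held only 212 cells, and CD8 T cells gave 93.6% of that library's Gzmb UMIs and 88.0% of those of Gzmc to Gzmg. With PBS the CD8 T share was 58.5% for Gzmb and 52.3% for the sum, and with the IL15 superagonist NK cells (38.6%) gave more of the sum than CD8 T cells (30.3%).

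Regulatory T cells carried Gzmb almost alone. Their Gzmb level was 739 CPM with PBS, 1182 with anti-PD1, 1767 with the IL15 superagonist and 1450 with the combination, from 154, 154, 58 and 141 cells; the fusion library had 18 such cells, at 2800 CPM. The sum of Gzmc to Gzmg in them was 15.0, 5.07, 135 and 52.5 CPM in the first 4 libraries. Conventional CD4 T cells had less: Gzmb stood at 190, 691, 312 and 392 CPM in those libraries, and the sum at 39.7 CPM or lower. The 42 CD4 T cells of the fusion library gave 891 CPM of Gzmb and 1541 CPM of the sum.

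T cells without enough Cd8, Cd4, Foxp3 or NK markers to be gated further gave Gzmb at 384, 745, 533, 703 and 1868 CPM, and the sum of Gzmc to Gzmg at 24.0, 73.8, 258, 791 and 4762 CPM. A single such cell held 52.8% of the sum with anti-PD1, 58.5% with the IL15 superagonist and 55.9% with the combination. T cells with NK receptors numbered at least 50 in the last 3 libraries, where Gzmb stood at 1437, 1576 and 1951 CPM and the sum at 941, 507 and 4384 CPM, with 1 cell holding 88.7% and 78.4% of the sum in the first and the second of these. Gamma-delta T cells of the same 3 libraries had 447, 657 and 1143 CPM of Gzmb. For Gzmb, therefore, the order of classes with the IL15 superagonist was NK cells (2518 CPM), regulatory T cells (1767), CD8 T cells (1455), T cells with NK receptors (1437), other T cells (533), gamma-delta T cells (447) and CD4 T cells (312). The interval of T cells with NK receptors (1368 to 1509) overlapped that of CD8 T cells (1433 to 1478), and that of gamma-delta T cells (378 to 525) overlapped that of other T cells (509 to 559). Among classes of at least 50 cells in the fusion library, CD8 T cells (3911 CPM) stood first and NK cells (2888) after them. Outside the lymphocytes, 2 basophils or mast cells of the PBS library held 93 UMIs of Gzmb and none of Gzmc to Gzmg. Conventional dendritic cells had 4.51 to 46.0 CPM of Gzmb in 4 libraries and 159 CPM with the combination, where 1 cell held 96.6% of it. Cells that met no gate (1.36% to 11.4% of a library) held 643 Gzmg UMIs with anti-PD1 and 821 with the combination. CD8 T cells held 51 and 95 there, and NK cells 0 and 6. Ungated cells also held 791 and 1337 Gzmd UMIs in these libraries, beside 791 and 1136 in CD8 T cells. With the IL15 superagonist ungated cells held 820 Gzmg and 1102 Gzmd UMIs, beside 56 and 972 in CD8 T cells and 969 and 1711 in NK cells. With PBS and the fusion ungated cells held 0 and 14 Gzmg UMIs, beside 16 and 5068 in CD8 T cells. The number of ungated cells that held these UMIs is not given here.

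The mixture of members differed between CD8 T and NK cells and between libraries. In CD8 T cells Gzmb made up 69.6% of the UMIs of the 6 genes with PBS, 70.7% with anti-PD1, 64.7% with the IL15 superagonist, 74.1% with the combination and 41.3% with the fusion. The part of Gzmf was 13.3%, 11.6%, 12.0%, 10.7% and 29.2%, and that of Gzmc 10.5%, 10.4%, 15.5%, 9.59% and 16.5%. In NK cells Gzmc made up 59.3%, 37.8%, 32.9%, 31.0% and 58.8%, and Gzmf 0.145%, 0.164%, 6.11%, 2.90% and 9.38%. Without its highest cell the PBS library had 49.8% Gzmc and 49.9% Gzmb. Regulatory T cells were at 92.9% to 99.6% Gzmb in the 4 libraries with at least 50 of them.

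**Figure D3:**
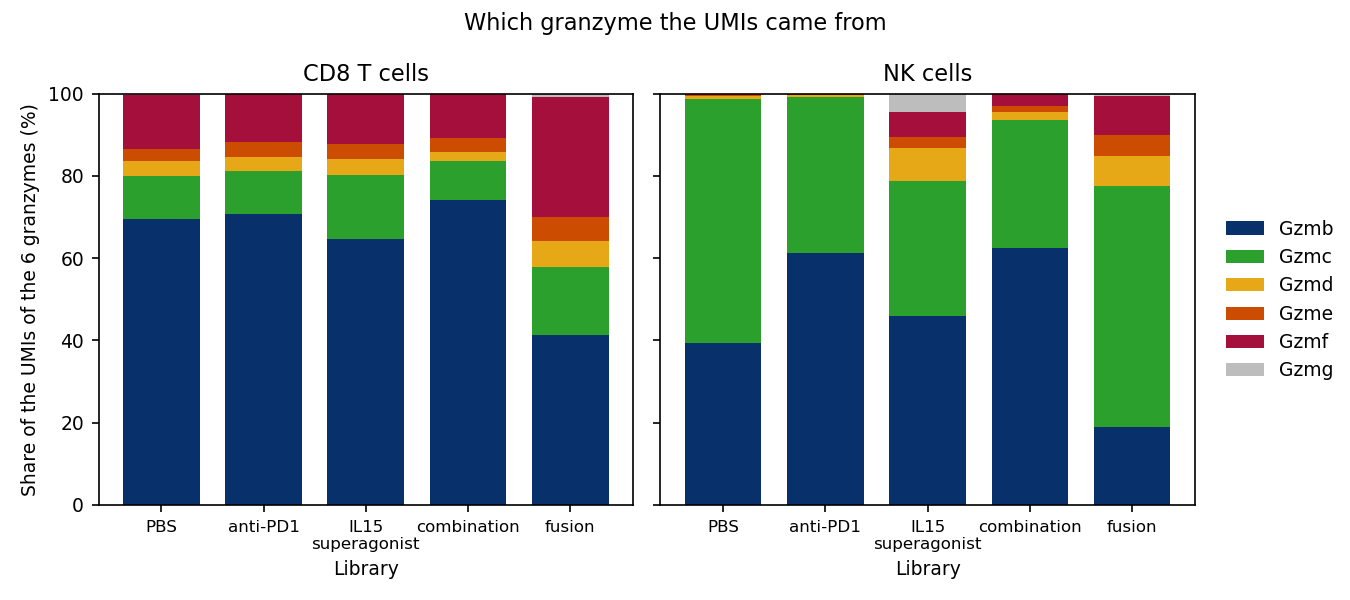
Share of the UMIs of the 6 granzymes that came from each member (y axis, percent, bars stacked to 100) in CD8 T cells (left) and NK cells (right) of each library. Gzmb (dark blue) makes up 64.7% to 74.1% in CD8 T cells of 4 libraries and 41.3% with the fusion, and Gzmc (green) is the largest part in NK cells with the fusion (58.8%) and with PBS (59.3%, or 49.8% without 1 cell).

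Single CD8 T cells tended to carry Gzmc to Gzmg together. Among thinned fusion cells with Gzmd, 74.4% (71.9% to 76.7%) also held Gzme, against 10.3% (9.46% to 11.1%) of cells without Gzmd. For Gzmf these shares were 81.9% and 33.6%, and for Gzmc 80.0% and 32.2%. Of the 320 cells with Gzmg, 93.1% held Gzmf, 86.6% Gzmc, 82.2% Gzmd and 80.9% Gzme. Each of these shares of Gzmd-positive and Gzmg-positive cells lay at 74.4% or above. Of the 2848 cells with Gzmf, 66.5% held Gzmc, against 23.3% of those without it. Cells of 1 gate differ in RNA content and state even when thinned, so these shares describe the cells and give no chance level.

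The same pairs were found together in the other libraries, from fewer cells. Gzme was detected in 77.8% of 9 Gzmd-positive cells with PBS, 90.5% of 21 with anti-PD1, 66.7% of 42 with the IL15 superagonist and 60.7% of 56 with the combination. Gzmc was detected in 46.7%, 57.1%, 44.7% and 25.7% of Gzmf-positive cells (30, 56, 114 and 179 cells). The combination had the lowest share of the 5 libraries for both pairs. For Gzmd with Gzme this order rests on few cells and was not tested. Reads shared between the near-identical Gzmd and Gzme could add to their overlap; their part in it was not tested. Over cells, Pearson's r of Gzmd with Gzme was 0.65 to 0.86 in the 5 libraries (893 to 6529 cells), that of Gzmc with Gzmf 0.30 to 0.56, and that of Gzmb with Gzmf 0.09 to 0.31.

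Gzmb was found with and without the other members. Thinned CD8 T cells with Gzmb and none of Gzmc to Gzmg made up 46.5%, 53.1%, 40.9%, 50.4% and 31.3% of the gate in library order. Cells with some of Gzmc to Gzmg but no Gzmb were 1.46%, 1.11%, 3.66%, 1.99% and 3.42% of CD8 T cells. In monocytes and macrophages they were 0.168%, 0.720%, 3.18%, 1.71% and 16.7%. These shares are over all cells of a class, and far fewer CD8 T cells than myeloid cells lacked Gzmb. With the fusion Gzmb was detected in 88.1% of CD8 T cells and 9.67% of myeloid cells. The shares therefore cannot show whether this pattern was above the background. In the fusion library Gzmb was detected in 94.3% of cells with any of Gzmc to Gzmg and in 78.8% of cells with none. Cells with at least 2 of the 5 genes Gzmc to Gzmg were 1.68%, 4.07%, 4.20% and 2.73% of the gate in the first 4 libraries and 37.1% with the fusion. The commonest patterns in the fusion library were Gzmb alone (31.3% of cells), Gzmb with Gzmc and Gzmf (10.3%), Gzmb with Gzmf (9.43%) and Gzmb with Gzmc (8.78%). All 6 members were detected in 3.28% of fusion cells and in 0.0963% to 0.278% of cells of the other libraries.

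**Figure D4:**
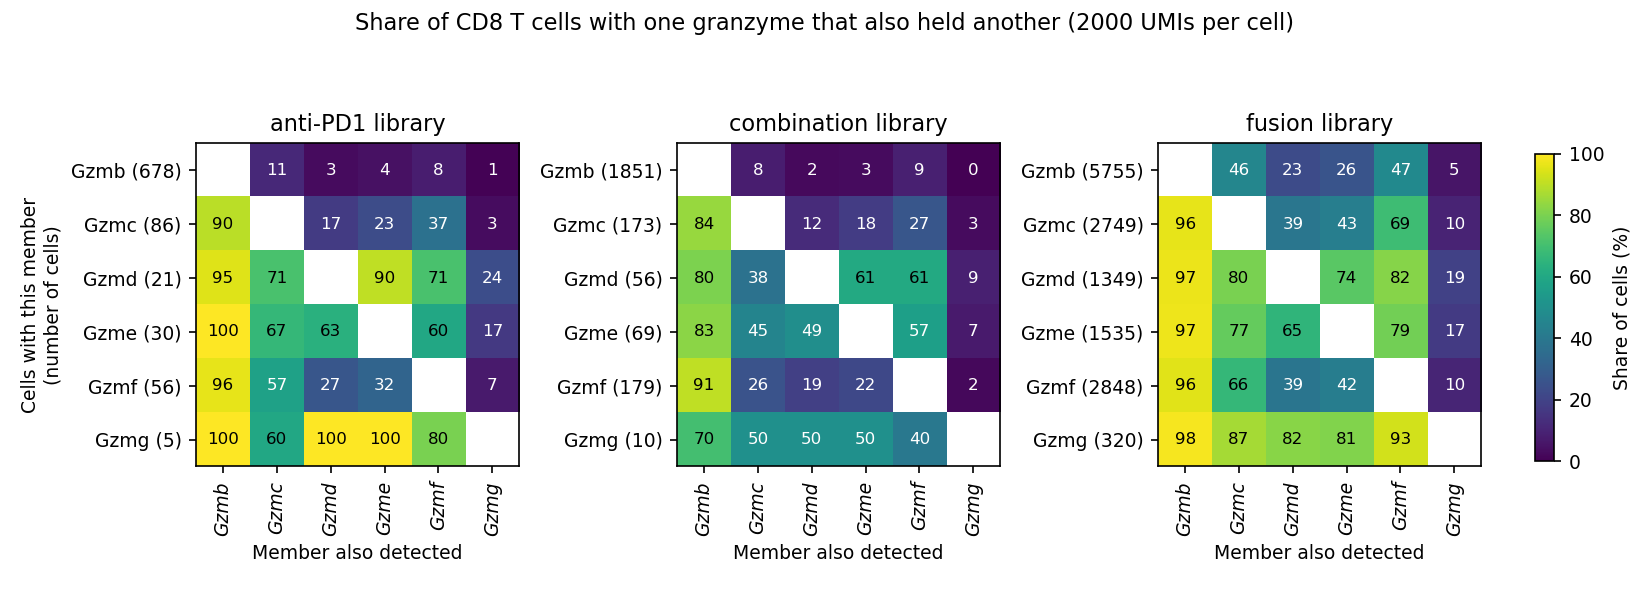
For CD8 T cells thinned to 2000 UMIs, the share (percent, colour scale 0 to 100) of cells with the member of a row that also held the member of a column, in the anti-PD1, combination and fusion libraries, with the number of cells of each row in parentheses. In the fusion library 74.4% of Gzmd-positive cells held Gzme and 93.1% of Gzmg-positive cells held Gzmf, whereas 25.7% of Gzmf-positive cells held Gzmc with the combination.

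Among fusion NK cells Gzmb was detected in 82.6% of those with any of Gzmc to Gzmg and 68.9% of those with none. With the IL15 superagonist the shares were 78.3% and 83.9%, with the combination 74.2% and 79.1%, and with anti-PD1 62.7% and 69.9%. With PBS the shares were 57.1% and 48.8%. In all 5 libraries the intervals of both shares overlapped. Of 42 fusion NK cells with Gzmd, 90.5% held Gzmc, 64.3% Gzme and 26.2% (13.9% to 42.0%) Gzmf. In fusion CD8 T cells with Gzmd, Gzmf and Gzmc were found at similar shares, both above that of Gzme. In fusion NK cells with Gzmd, Gzmf was the least frequent of Gzmc, Gzme and Gzmf.

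Within CD8 T cells the levels of the members differed by cell state, and not in the same way for Gzmb and the sum of Gzmc to Gzmg. States were read from short gene lists, comparing thinned cells with at least 2 UMIs of a list with cells that had 0. Gzmk, which encodes another granzyme outside this locus, went with Gzmb and with the sum in opposite directions. Gzmb was detected in 83.1% of Gzmk-rich cells against 45.3% of Gzmk-negative cells with PBS, 73.9% against 58.9% with anti-PD1, 75.4% against 43.8% with the IL15 superagonist, 66.6% against 54.2% with the combination and 94.3% against 87.0% with the fusion. The share with any of Gzmc to Gzmg went the other way in all 5: 0% against 6.80%, 1.68% against 12.7%, 8.33% against 16.4%, 4.16% against 14.4% and 41.1% against 63.7%. The PBS value rests on 0 of 59 Gzmk-rich cells, whose interval reaches 6.06%. In CPM the sum was 2.91-fold lower (2.78 to 3.06) in Gzmk-rich cells of the fusion library and 13.1-fold lower (9.67 to 18.1) in those of the combination.

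Cycling cells (Mki67, Top2a, Birc5, Ube2c, Cdk1, Rrm2) made up 23.5%, 22.9%, 6.94%, 8.95% and 47.2% of CD8 T cells. The sum of Gzmc to Gzmg was higher in them by 4.69-fold with anti-PD1, 3.08-fold with the IL15 superagonist and 3.25-fold with the combination. It stood at 0.885 (0.870 to 0.901) of the level of non-cycling cells with the fusion and 0.595 with PBS. Outside the fusion library these values of the sum rest on few cells. Before thinning, the PBS cell with the most UMIs of the sum held 465 of them and had 1 cycling UMI. Its group, and with it the PBS value, can thus change with thinning. The highest cell with anti-PD1 held 903 UMIs of the sum and 23 cycling UMIs, and that of the combination 1424 and 92. Gzmb was 1.42-fold higher in cycling cells with anti-PD1, 1.66-fold with the IL15 superagonist and 1.68-fold with the combination. With the fusion it stood at 0.830 of non-cycling cells. Among unthinned cells with 0 cycling UMIs the fusion library was still above PBS. The log2 ratio was 2.71 for Gzmb and 6.54 for the sum, where the values over all cells are 2.50 and 4.19. The value of 6.54 leaves out the PBS cell with 465 UMIs of the sum. Among thinned cells with 0 cycling UMIs the sum stood at 4829 CPM with the fusion and 224 CPM with PBS. Cells with inhibitory receptors (Pdcd1, Havcr2, Lag3, Tigit) had more Gzmb in every library, from 1.14-fold with the fusion to 2.91-fold with anti-PD1. The sum was higher in them in the 4 treated libraries, by 5.60-fold, 3.48-fold, 3.71-fold and 1.33-fold, and lower with PBS at 0.335, a library in which 3 cells hold at least 50% of it. Cells with cytokine genes (Ifng, Xcl1, Ccl1, Ccl3) had more of the sum with anti-PD1 (1.54-fold), the IL15 superagonist (5.30-fold) and the combination (2.22-fold) and less with PBS (0.579) and the fusion (0.675). Outside the fusion library the ratios of the sum for inhibitory receptors and cytokine genes also rest on few cells.

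**Figure D5:**
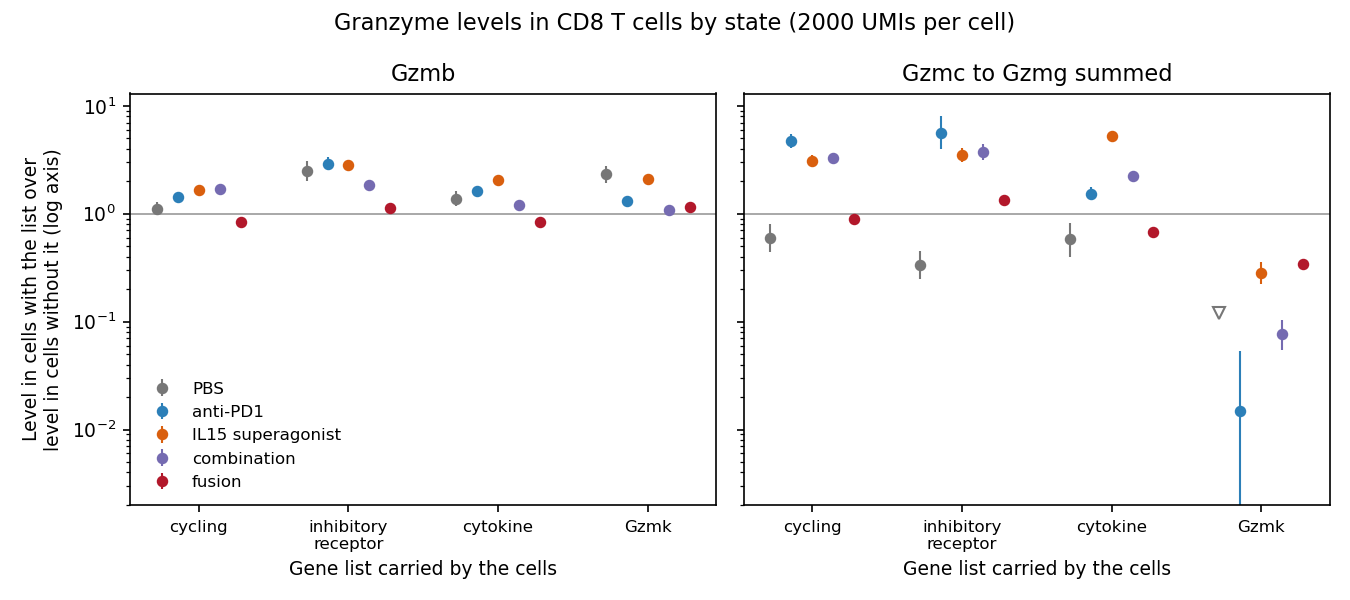
Level in CD8 T cells that carried at least 2 UMIs of a gene list (x axis) divided by the level in cells with 0 (y axis, log axis, 1 marked by the line), for Gzmb (left) and the sum of Gzmc to Gzmg (right), by library with exact 95% intervals; the open triangle is an upper limit where 0 UMIs were counted. Gzmk-rich cells lie above 1 for Gzmb in all 5 libraries and below 1 for the sum, down to 0.0147 with anti-PD1.

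Of 17 other genes of the granule pathway, 4 were at least 2-fold higher in CD8 T cells with the fusion than with PBS (Gzma, Gzmm, Lamp1 and Serpinb1a, beside 8.94% of genes) and 2 lower (Ctsh and Rab27a, beside 16.1% of genes). Their median was 0.30 on the log2 scale, where that of the members was 4.18. Gzma was 19.0-fold higher (16.9 to 21.4), an interval that overlaps those of Gzmd, Gzme, Gzmf and Gzmg. Without the highest cell of each library the ratios of Gzmc to Gzmg ran from 20.6 for Gzme to 74.7 for Gzmg. The ratio of Gzma without those cells was not computed. Serpinb1a was 7.40-fold higher (4.47 to 13.3), an interval that holds the ratio of Gzmb. Gzma, a tryptase-type granzyme of another chromosome, stood at 46.6, 205, 965, 996 and 884 CPM, so it was highest in the 3 libraries whose treatment contains IL15. Prf1, which encodes perforin, stood at 162, 429, 210, 308 and 305 CPM, highest with anti-PD1. Serpinb9, an inhibitor of granzyme B that protects the cell itself, stood at 255, 351, 450, 426 and 431 CPM. Against the combination none of the 17 was 2-fold higher with the fusion and 4 were lower (Gzmk, Gzmm, Ctsh and Stx11; 7.36% of genes were), with a median of -0.17, where the members had a median of 3.06 and all genes -0.07.

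Of 10 transcription factors known to act in cytotoxic lymphocytes, none was 2-fold higher in CD8 T cells with the fusion than with PBS and 6 were lower (16.1% of genes were at least 2-fold lower): Eomes, Prdm1, Id2, Stat5a, Stat5b and Zeb2. Eomes, a T-box factor of memory and effector cells, stood at 85.5, 59.4, 46.7, 54.2 and 22.9 CPM. Prdm1, which encodes Blimp-1, stood at 26.6, 34.3, 9.38, 10.4 and 4.37 CPM. Tbx21, which encodes T-bet, stood at 59.9, 54.4, 80.6, 81.0 and 106 CPM. In NK cells 5 of the 15 granule genes with enough UMIs were at least 2-fold higher with the fusion than with PBS (Gzma, Gzmk, Prf1, Serpinb9b and Serpinb1a), beside 12.6% of genes. Gzma stood at 3779, 8710, 15880, 17383 and 9057 CPM and Prf1 at 239, 567, 1061, 1002 and 579 CPM, highest in the libraries of the IL15 superagonist and the combination rather than in that of the fusion.

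Of 9 neighbouring genes on the list of the locus, 7 gave at most 115 UMIs over all cells, and Mcpt8 and Cma1 gave more. Gzmn, which lies inside the row, gave 16 UMIs over all cells, Mcpt1, Mcpt9 and Cma2 gave 0, Mcpt2 gave 1, Mcpt4 gave 8 and Ctsg gave 115. Mcpt8, a basophil protease gene, gave 418 UMIs, of which 314 lay in CD8 T cells. With the fusion 255 CD8 T cells (3.91%) had it, and 92.5% of those held Gzmc, unthinned, against 61.0% of CD8 T cells without it. These shares were not taken at equal depth, and the depth of cells with and without Mcpt8 was not compared. Mcpt8 was also a gate gene: T cells with at least 3 UMIs of Mcpt8, Cpa3 and Ms4a2 together were left out as mixed. Its level and share in CD8 T cells are therefore lower limits. Mixed cells of the fusion library held 61 Mcpt8 UMIs in 19 cells, 94.7% of them with Gzmc. Cma1, which encodes mast cell chymase, gave 1650 UMIs, of which 1084 lay in NK cells. Its NK level was 34.1, 56.5, 124, 112 and 84.2 CPM, from 6.78%, 13.4%, 27.4%, 25.3% and 25.0% of cells, and with PBS and anti-PD1 it stood above Gzmd to Gzmg. Unthinned, Gzmc was found in 41 of 263 NK cells with Cma1 in the IL15 superagonist library (15.6%, against 27.7% of those without), 28 of 201 with the combination (13.9% against 27.4%) and 9 of 53 with the fusion (17.0% against 54.7%). The PBS and anti-PD1 values come from 1 of 12 and 3 of 60 cells. These shares describe the cells of each library, were not taken at equal depth and were not tested.

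The genes most like the members were sought over 45 combinations of cell class and library among 12405 genes with at least 100 UMIs. Gzmb was followed most closely by Nkg7 (Pearson's r 0.964), Sytl3 (0.948), Il2rb (0.948), Thy1 (0.946) and Pglyrp2 (0.942), ahead of its own neighbour Gzmc (0.818). The sum of Gzmc to Gzmg was followed by Prf1 (0.874), Wdr95 (0.871), Dapk2 (0.866), Klre1 (0.845) and Klrc1 (0.832). Units of 1 library share depth and free RNA, and the same T and NK classes recur in each, so these values are descriptions. Within single CD8 T cells, averaged over the 5 libraries, Gzmb was most like Lgals1 (0.334), Prf1 (0.288), S100a6 (0.274), Actg1 (0.272) and Tmsb4x (0.271), and the sum was most like Irf8 (0.278), Serpinb9b (0.236), Spp1 (0.224), Mt1 (0.215) and AA467197 (0.212). These lists of 5 genes for Gzmb and for the sum had no gene in common.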

How the data were processed

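Per the labels' protocols, live CD45+ cells were sorted and made into 5' droplet libraries; per the submitters' processing notes, the authors used Cell Ranger 2.1.1 and mm10. The deposited matrices hold raw UMI counts per gene and cell. Aligner settings, annotation and strand setting: not given in the sources used here. Cells with over 10% mitochondrial UMIs or fewer than 200 genes were dropped, and cells were gated on UMIs: at least 2 of Cd3d, Cd3e and Cd3g for T cells, at least 2 of Cd8a and Cd8b1 with at most 1 of Cd4 and Foxp3 for CD8 T cells, at least 2 of Ncr1 and Klrb1c with at most 1 of the Cd3 genes for NK cells, and at least 10 of 8 myeloid genes for monocytes and macrophages. No doublet caller was run, and cells with markers of 2 lineages were left out. Among these were T or NK cells that passed the basophil or mast cell gate on Mcpt8, Cpa3 and Ms4a2.

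Counts were summed per gate and library and divided by the gate's UMIs (CPM), with exact Poisson intervals; shares have Clopper-Pearson intervals and ratios exact conditional binomial intervals, all covering counting error only. A gene counted as higher or lower past 2-fold with at least 20 UMIs over both libraries, in classes of at least 50 cells. Because the 5' kit counts molecules, CPM needs no division by gene length. Thinning used 2000 UMIs per cell and left out shallower cells (28 CD8 T cells with PBS, 1 with the IL15 superagonist and none elsewhere). Named genes were the 6 members, all neighbours on a list of the locus, genes of the granule and regulator lists past 2-fold or named by role, and the 5 genes of highest Pearson's r with Gzmb and with the sum. The members and lists were chosen with earlier results of these data known. The cell state lists and the motifs were chosen in the same way, and 1 planned state list is not reported here. Python 3.11.15, numpy 2.4.6, scipy 1.17.1, pandas 2.3.3 and Biopython 1.88 were used, and the 2-fold calls and the likeness search were tested on simulated data. Gene positions came from GENCODE and promoters from RefSeq (GRCm38.p6), where all 6 members matched; protein sequences were not used here.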

Additional observations from a re-analysis of the deposited data

How the results depend on the processing

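The values that follow are log2 ratios in CD8 T cells and, for Gzmb, run in the order fusion, combination, IL15 superagonist and anti-PD1 over PBS, then fusion over the combination, from 2.50, 1.40, 1.07, 1.45 and 1.10. Thinning cells to 2000 UMIs before gating gave 2.34, 1.05, 0.85, 1.22 and 1.29. Cells with 0 cycling UMIs gave 2.71, 1.25, 0.99, 1.06 and 1.46. Median-ratio scaling gave 2.65, 1.49, 1.15, 1.52 and 1.18, and the mean of cells in place of pooled UMIs 2.36, 1.04, 0.80, 1.19 and 1.31. Keeping cells with markers of 2 lineages gave 2.58 for the fusion over PBS and 1.16 for the fusion over the combination. A stricter gate of at least 4 UMIs gave 1.13 for the IL15 superagonist and 1.05 for the fusion over the combination. For the sum of Gzmc to Gzmg the starting values were 4.19, 1.08, 1.38, 1.37 and 3.12. Thinning gave 0.15, 0.65, 0.62 and 4.01 for the last 4. Cells with 0 cycling UMIs gave 6.54, 2.17, 2.84, 1.55 and 4.38. These cells were not thinned, and the first 4 values leave out the PBS cell with 465 UMIs of the sum. Scaling gave 4.35, 1.17, 1.47 and 3.20 for all but anti-PD1, and the mean of cells 4.57, 0.70, 1.17 and 3.87 for the same. Keeping mixed cells gave 0.93, 1.29, 1.09 and 3.22 for the last 4. The stricter gate gave 4.09 for the fusion over PBS and 3.05 for the fusion over the combination, and a mitochondrial limit of 5% gave 1.30 for anti-PD1. The cause of these shifts was not tested.

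The 3 alternatives that follow were chosen after seeing the data. Leaving out the highest cell of each library gave 4.59, 1.33, 1.69, 1.57 and 3.26 for the sum, and, of the 6 members, 6 in place of 3 at least 2-fold above PBS in CD8 T cells with the combination and 2 in place of 1 in NK cells with anti-PD1. Leaving out cells with a shared barcode gave 3.09 for the fusion over the combination. With anti-PD1 as the reference in place of PBS, Gzmb was 1.04 for the fusion, -0.054 for the combination and -0.38 for the IL15 superagonist, and the sum was 2.82, -0.30 and 0.012, so the combination turned in both and the IL15 superagonist in Gzmb. Among the alternatives planned, at 4000 UMIs per cell Gzmf-positive cells held Gzmc in 39.4% with the combination and 72.5% with the fusion, from 25.7% and 66.5%. At a limit of 1 UMI of the cycling list, 70.4% of cycling cells of the combination held Gzmb, from 76.7%. With windows of 91 bases, 100% of those of Gzmc and of Gzmf, 98.1% of Gzmd, 99.3% of Gzme and 98.7% of Gzmg were found in no other member. Gzmb and the sum in CD8 T cells kept their direction in the fusion comparisons under every alternative run. No paired analysis was possible because each treatment has 1 library and no replicate numbers. The planned comparison of protein sequences was not run, since no protein table was used here. Depth limits Gzmg most, with 16 UMIs in the CD8 T cells of the PBS library.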
